A study of Mus musculus with 96 samples.

Results

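Lipid-sensing nuclear receptors and their coregulators were followed in mouse liver under calorie restriction. The set had 10 listed genes, Ppara, Ppard, Nr1h2, Nr1h3, Nr1h4, Nr0b2, Rxra, Rora, Esrra and Ppargc1b, and a probe set belonged to it when its annotation held exactly 1 gene symbol and that symbol was on the list. By that rule 9 of the 10 genes had probe sets, and 23 of the 34958 single-symbol probe sets on the array were members. Nr1h2, which encodes the liver X receptor LXR-beta, was not analysed here. Of the 23 probe sets, 21 were bright enough to test, meaning a signal at or above the median of its array in at least 8 of 96 arrays, and they are 21 of the 32999 probe sets that passed that filter. The remaining probe sets, Ppard 1425703_at and Rxra 1430497_at, reached their array's median in 0 and 5 of 96 arrays.

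The study crossed 6 strains with 2 diets. The 5 inbred strains were CBA/J, DBA/2J, C3H/HeJ, 129S1/SvImJ and C57BL6/J, and B6C3F1/J was a first-generation hybrid of C57BL6/J and C3H/HeJ. All mice were males that arrived at 6 weeks of age, lived alone in their cages and ate a control diet on the AIN93M formula at 84 kcal per week until 8 weeks of age. From then on, mice of the restricted groups received 25% fewer calories, mice of the control groups stayed on the control diet, and liver was collected at 22 weeks of age, after 14 weeks on diet. Each of the 12 strain-by-diet groups had 8 mice, with 1 mouse per array and total liver RNA on each. None of the strains is described as carrying a transgene or an engineered deletion.

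Nuclear receptors are transcription factors that change their activity when a small lipophilic molecule binds them. PPAR-alpha (Ppara) and PPAR-delta (Ppard) sense fatty acids and switch on fatty acid oxidation, LXR-alpha (Nr1h3) senses oxysterols, and FXR (Nr1h4) senses bile acids and induces SHP (Nr0b2), a receptor without a DNA-binding domain that represses bile acid synthesis. RXR-alpha (Rxra) is the shared dimer partner of PPARs, LXRs and FXR. ROR-alpha (Rora) binds single half-sites in clock and lipid genes, ERR-alpha (Esrra) is an orphan receptor of mitochondrial genes, and PGC-1-beta (Ppargc1b) is a coactivator of ERRs and other factors. On GRCm38.p6, Ppara lies at chr15:85734910-85806851, Ppard at chr17:28232754-28301469, Nr1h3 at chr2:91184061-91202829, Nr1h4 at chr10:89454234-89533645 and Nr0b2 at chr4:133553376-133556686. Rxra lies at chr2:27676445-27763319, Rora at chr9:68653404-69388246, Esrra at chr19:6910977-6922048 and Ppargc1b at chr18:61291445-61400756. Activity of these proteins depends on ligands, and the arrays measured only their messenger RNA.

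Signal is given as log2 of the MAS5 intensity, on which 1 unit is a doubling, and a difference is restricted minus control unless stated otherwise. A call means an adjusted p under 0.05 in a limma fit over all 32999 probe sets, with Benjamini-Hochberg adjustment over all of them. Levels are not compared between probe sets, since each has its own brightness. In whole tissue, fewer cells of a type and less RNA per cell cannot be told apart. The liver label held: the 8 hepatocyte markers reached their array's median in 99.0% to 100% of arrays. Some markers of other cell types also reached it in 100% of arrays. Among them were Csf1r of macrophages, Dcn of stellate cells, Clec4g of endothelial cells and Alas2 of erythroid cells. Others did so in fewer arrays, such as the macrophage marker Marco in 35.4% and the fibroblast marker Col1a1 in 15.6%. Of 5 bile duct cell markers 4 were measured, Krt7, Sox9, Krt19 and Epcam, and they reached it in 12.5%, 22.9%, 25% and 62.5% of arrays. Of 4 adipocyte markers 2 were measured, Adipoq and Retn, and they reached it in 12.5% and 25% of arrays.

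Some arrays stood apart. The array median log2 signal was above 8 in 2 arrays, DBA/2J restricted replicate 6 and B6C3F1/J control replicate 2, and between 6.21 and 7.50 in the other 94. All 8 restricted CBA/J arrays had a higher median than all 8 control CBA/J arrays, 7.29 against 6.52 on average (exact two-sided permutation p = 0.000155, the smallest this design can give, and 0.00342 after adjustment over 66 comparisons). The mean log2 signal of the 8 hepatocyte markers rose with it, from 14.65 to 15.04 in the control CBA/J arrays to 15.70 to 16.59 in the restricted ones (adjusted p = 0.00342). The mean of the 4 of 6 lymphocyte markers measured rose by 0.97 (adjusted p = 0.0103), and that of the 4 of 5 bile duct cell markers by 1.33 (adjusted p = 0.0469). Among the lymphocyte markers Cd3e, Cd79a and Ms4a1 were dim and reached their array's median in 11.5%, 32.3% and 44.8% of arrays. The bile duct cell markers were dim as well, as given above. The log2 ratio of the 3-prime to the 5-prime Gapdh control probe set, a measure of RNA integrity, went from -0.40 to -0.03 in CBA/J (adjusted p = 0.00342). The same ratio for Actb did not differ by this test in CBA/J, at 1.18 on the control and 1.26 on the restricted diet (adjusted p = 0.739). In C57BL6/J the Actb ratio went from 0.81 to 1.07 (adjusted p = 0.0164). Results that rest on CBA/J or on either of the 2 bright arrays are therefore given with and without them, and the part of array level and RNA integrity in each was not tested beyond the values given.

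Averaged over the 6 strains, calorie restriction changed 6 of the 21 member probe sets, 3 upward and 3 downward. Over all probe sets tested 22.7% were called, 11.0% higher and 11.7% lower, so the 6 of 21 members were near the background share. The probe sets that rose were Nr0b2 1449854_at by 0.44 ± 0.13 (SE, adjusted p = 0.00720), Esrra 1460652_at by 0.24 ± 0.05 (adjusted p = 0.000458) and Rora 1455165_at by 0.38 ± 0.08 (adjusted p = 7.25e-05). Nr1h4 1419105_at fell by 0.19 (SE 0.06, adjusted p = 0.0145), and the Rora probe sets 1436326_at and 1436325_at fell by 0.39 (SE 0.09, adjusted p = 0.000641) and 0.25 (SE 0.08, adjusted p = 0.0185). The median difference of the 21 member probe sets was 0.08, against 0.05 over all probe sets. Without CBA/J only Esrra 1460652_at, 0.33 ± 0.06 (adjusted p = 1.46e-05), and Rora 1455165_at, 0.57 ± 0.09 (adjusted p = 2.95e-07), were called. With CBA/J in the fit, 8 of 21 member probe sets had a diet difference that depended on the strain (interaction F test, 18.7% of all probe sets). Without CBA/J none of those 8 was called (adjusted p from 0.163 to 0.873). Over all probe sets the interaction calls fell as well, from 6164 to 319, so this loss was not particular to the members.

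**Figure D1:**
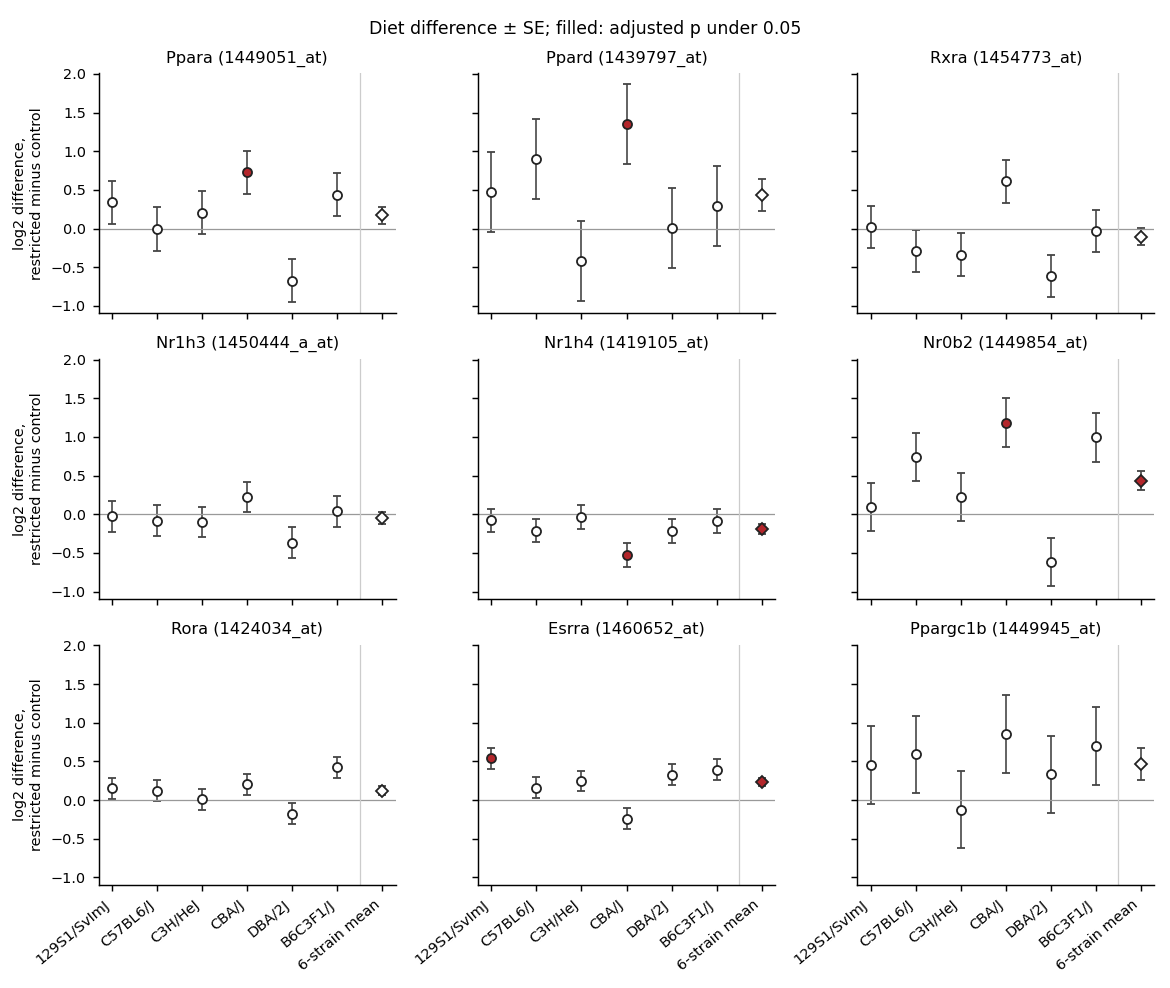
Log2 difference, restricted minus control, of the brightest probe set of each of the 9 measured genes in each strain (circles) and averaged over the 6 strains (diamonds). Bars are ± SE of the limma fit and filled symbols have an adjusted p under 0.05. CBA/J has the highest difference for Ppara and Nr0b2 and the lowest for Nr1h4 and Esrra. DBA/2J lies lowest for Ppara, Rxra, Nr1h3 and Nr0b2 with the bright array DBA/2J restricted replicate 6 included. Without that array the DBA/2J restricted means of Nr1h3 and Rxra were 11.38 and 11.20, against control means of 11.40 and 11.52.

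Ppara messenger RNA, the transcript of the receptor that drives fatty acid oxidation in fasting, passed the averaged test under some settings and not in the fit reported here. Its probe set 1449051_at read 13.48, 14.02 and 14.20 (lowest, median and highest) in control CBA/J mice and 14.13, 14.67 and 15.12 in restricted CBA/J mice. These groups overlapped only narrowly, at the bottom of the restricted group and the top of the control group. The difference of 0.73 ± 0.28 was called in CBA/J (adjusted p = 0.0334), where 35.6% of all probe sets were called, but it was 0.36 (adjusted p = 0.283) after quantile normalization, 0.59 (adjusted p = 0.136) with arrays centred on their 75th percentile and 1.57 (adjusted p = 1.66e-06) in a fit that also held each array's median. In restricted DBA/2J mice the same probe set read 10.78, 13.63 and 14.23, the widest spread of the 12 groups, and control DBA/2J mice read 13.12, 13.53 and 14.68. The medians of those DBA/2J groups were close, while 3 restricted arrays lay below every control, replicate 6 lowest of them, and the other 5 lay within the control range. Over the 6 strains the averaged difference was 0.17 ± 0.11 (adjusted p = 0.305), with a 95% interval of -0.06 to 0.40. The averaged difference was called with array weights, at 0.20 (adjusted p = 0.0204), and with the array median held, at 0.30 (adjusted p = 0.0130).

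The remaining Ppara probe sets gave averaged differences of 0.20 ± 0.11 (1439675_at, adjusted p = 0.185) and 0.08 ± 0.09 (1457721_at, adjusted p = 0.612). In C3H/HeJ, 1439675_at read 12.21, 12.73 and 12.85 on the control diet and 12.85, 13.04 and 13.25 on the restricted diet. All 8 restricted C3H/HeJ mice lay above all 8 controls, as was the case for 0.876% of all probe sets when either direction is counted, yet the difference of 0.37 had an adjusted p of 0.850. Probe set 1457721_at fell by 0.71 in DBA/2J (SE 0.23, adjusted p = 0.0468; 5.38% of all probe sets were called there), and without DBA/2J restricted replicate 6 the value was -0.48 (adjusted p = 0.249). The DBA/2J value was also not called with the array median held (-0.42, adjusted p = 0.201) or with array weights (-0.33, adjusted p = 0.359). The averaged difference of 1439675_at was called without either bright array at 0.22 (adjusted p = 0.0114), with array weights at 0.23 (adjusted p = 0.00338) and with the array median held at 0.33 (adjusted p = 0.00155).

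Ppara and other members varied within groups together with the Gapdh ratio. Across the 96 arrays, after the mean of each group was removed, probe set 1449051_at was lower where the Gapdh 3-prime to 5-prime ratio was higher, with Pearson's r of -0.60 (permutation p = 1e-05, the smallest that 100000 resamples can give; 0.00022 after adjustment) and Spearman's rho of -0.39 (permutation p = 0.00021, adjusted 0.00253). Without the 2 arrays farthest from the median of that ratio, r was -0.52. This relation was 1 of 22 computed over 11 member probe sets and 2 array measures, a family chosen after the data were seen. For Rxra 1454773_at r with the same ratio was -0.51 (permutation p = 0.00078, adjusted 0.00572; rho = -0.17, permutation p = 0.103, adjusted 0.283), and for Nr1h4 it was -0.35 (permutation p = 0.00395, adjusted 0.0162; rho = -0.25, permutation p = 0.0182, adjusted 0.0803). For Rora 1424034_at r was -0.44 (permutation p = 0.0231, adjusted 0.0423; rho = 0.02, permutation p = 0.879, adjusted 0.879), and for Ppargc1b it was -0.23 (permutation p = 0.166, adjusted 0.215; rho = -0.33, permutation p = 0.00194, adjusted 0.0142). Without the 2 farthest arrays these 4 values of r were -0.39, -0.34, -0.18 and -0.47. For Esrra 1460652_at r with the same ratio was 0.11 (permutation p = 0.450, adjusted 0.521), and for Nr0b2 it was -0.19 (permutation p = 0.0997, adjusted 0.146).

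Ppard and Rxra showed no averaged change that passed the test. Ppard 1439797_at lay near the array median, which it reached in 49 of 96 arrays, and its averaged difference was 0.43 ± 0.21 (adjusted p = 0.136). In CBA/J it read 4.07, 6.33 and 7.55 on the control diet and 4.97, 7.69 and 8.33 on the restricted diet. Most restricted CBA/J mice lay above most controls, and the difference of 1.35 ± 0.52 was called (adjusted p = 0.0336), but it was 0.74 (adjusted p = 0.312) after quantile normalization, 1.25 (adjusted p = 0.0946) with array weights and 1.01 (adjusted p = 0.216) with the array median held. Rxra 1454773_at, the shared dimer partner, differed by -0.11 ± 0.11 on average (adjusted p = 0.542), with strain values from -0.62 in DBA/2J to 0.61 in CBA/J. Without DBA/2J restricted replicate 6 the DBA/2J restricted mean was 11.20 ± 0.60 (SD, n = 7) in place of 10.90, against 11.52 on the control diet. Rxra 1425762_a_at rose in CBA/J by 0.60 ± 0.21 (adjusted p = 0.0207), and by 0.78 ± 0.23 more than the mean of the other strains (adjusted p = 0.00804; 27.3% of all probe sets differed in that comparison). The call in CBA/J was lost with arrays centred on their 75th percentile, at 0.46 (adjusted p = 0.0773), and with the array median held, at 0.49 (adjusted p = 0.132).

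Nr1h3, the LXR-alpha gene, was called neither in the averaged comparison nor in the F tests over strains. Its single probe set 1450444_a_at had group medians between 11.02 and 11.44, and its averaged difference was -0.05 ± 0.08 (adjusted p = 0.700), with a 95% interval of -0.21 to 0.11. No strain gave a called difference by limma, and the interaction had an adjusted p of 0.594. The lowest value of all, 8.55, came from DBA/2J restricted replicate 6, while the next of that group was 10.89. Without that array the DBA/2J restricted mean was 11.38 ± 0.41 (SD, n = 7) in place of 11.03, against 11.40 on the control diet.

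The bile acid receptor and its target moved in opposite directions in CBA/J. Nr1h4, the FXR gene, read 12.31, 12.50 and 13.02 in control CBA/J mice and 11.67, 11.94 and 12.61 in restricted CBA/J mice. Most restricted CBA/J livers lay below every control, with 1 restricted array inside the control range, and Nr1h4 fell by 0.53 (SE 0.15, adjusted p = 0.00414). The other strains gave Nr1h4 differences from -0.22 in DBA/2J to -0.04 in C3H/HeJ, none of which was called. The interaction was not called either (adjusted p = 0.400). The B6C3F1/J difference of -0.09 includes the bright array, control replicate 2. Without that array the B6C3F1/J control mean was 12.46 ± 0.22 (SD, n = 7) in place of 12.20, against 12.11 on the restricted diet. Without CBA/J the averaged Nr1h4 difference was -0.13 (adjusted p = 0.265), and with arrays centred on their 75th percentile it was -0.21 (adjusted p = 0.0665). Over 15 alternatives the averaged Nr1h4 difference ran from -0.24 to -0.12 (adjusted p from 1.21e-05 to 0.265), and the call stood in 12. In a fit that also held each array's median, the CBA/J difference of Nr1h4 was -0.05 (adjusted p = 0.863).

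Nr0b2, the SHP gene, read 9.53, 10.64 and 11.31 in control CBA/J mice and 11.22, 11.72 and 12.03 in restricted CBA/J mice. The 2 lowest restricted values lay just below the highest control and the other 6 above it, and Nr0b2 rose by 1.18 ± 0.31 (adjusted p = 0.00193), a call that stood under all 15 alternatives with values from 1.04 to 2.03. In B6C3F1/J, Nr0b2 read 7.01, 10.98 and 11.41 on the control diet and 10.72, 11.38 and 12.19 on the restricted diet. The lowest of these controls, replicate 2, is 1 of the 2 bright arrays and lay far below the next control at 9.76, and the difference of 0.99 ± 0.31 was not called (adjusted p = 0.0585). Without that array the B6C3F1/J difference was 0.52 ± 0.26 (adjusted p = 0.410). In DBA/2J, Nr0b2 read 11.03, 11.88 and 12.60 on the control diet against 10.42, 11.27 and 12.31 on the restricted diet, and the difference there was -0.62 ± 0.31 (adjusted p = 0.266). The strains differed in the Nr0b2 response (interaction adjusted p = 0.0100), and CBA/J exceeded the mean of the other strains by 0.90 ± 0.34 (adjusted p = 0.0416). Without CBA/J the interaction for Nr0b2 had an adjusted p of 0.209, and the averaged difference was 0.29 ± 0.15 (adjusted p = 0.213). In that fit the interaction calls over all probe sets fell from 6164 to 319.

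**Figure D2:**
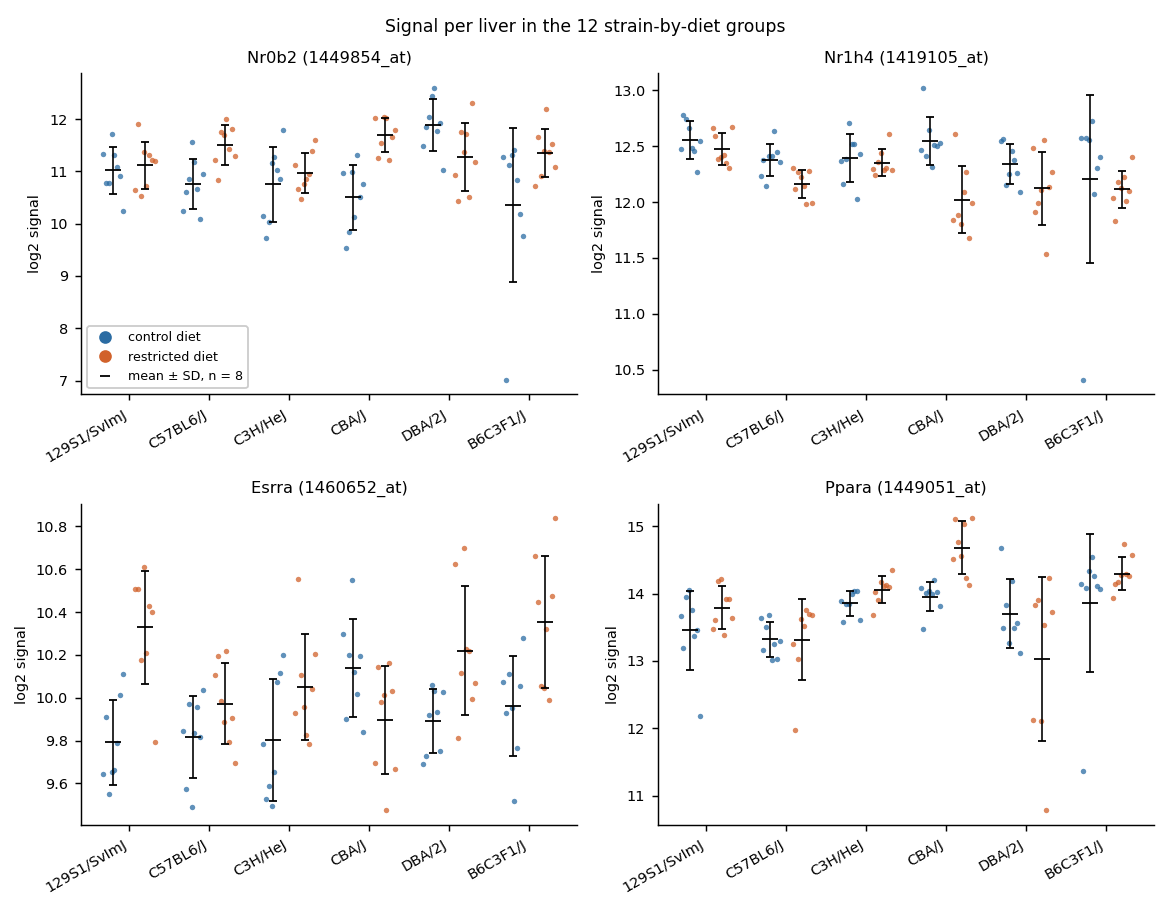
Log2 signal of every liver for Nr0b2, Nr1h4, Esrra and Ppara in the 12 strain-by-diet groups, with 8 mice per group; black bars are mean ± SD, and blue and orange points are the control and restricted diets. Nr0b2 is higher and Nr1h4 lower in most restricted than control CBA/J livers, Esrra is higher in the restricted 129S1/SvImJ group, and single low points mark B6C3F1/J control replicate 2 (Nr0b2 at 7.01, Nr1h4 at 10.41, Ppara at 11.36).

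The promoter windows of Nr0b2 and Nr1h4 are shown because these genes of the bile acid loop changed in opposite directions in CBA/J. Each window runs 5′ to 3′ on the gene's strand from 250 bases before to 50 bases after the annotated start, from RefSeq on GRCm38.p6. Capitals mark matches to the receptor half-site AGGTCA, the LRH-1 site CAAGGNCA and the E-box CACGTG, searched on both strands. The Nr0b2 window is chr4:133553126-133553425 on the plus strand and the Nr1h4 window chr10:89506609-89506908 on the minus strand.
Nr0b2: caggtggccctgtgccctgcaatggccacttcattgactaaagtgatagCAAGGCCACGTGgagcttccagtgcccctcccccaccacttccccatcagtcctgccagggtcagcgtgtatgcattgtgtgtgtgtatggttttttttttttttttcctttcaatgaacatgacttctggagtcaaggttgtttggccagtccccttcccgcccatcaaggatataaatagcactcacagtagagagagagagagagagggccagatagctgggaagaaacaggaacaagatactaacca
Nr1h4: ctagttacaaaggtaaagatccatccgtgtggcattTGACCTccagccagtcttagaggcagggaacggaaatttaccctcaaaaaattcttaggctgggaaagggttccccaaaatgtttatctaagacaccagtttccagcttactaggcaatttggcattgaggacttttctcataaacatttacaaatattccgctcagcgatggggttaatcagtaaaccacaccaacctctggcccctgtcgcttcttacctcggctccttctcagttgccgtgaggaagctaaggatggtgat
In Nr0b2 the LRH-1 site CAAGGCCA began 201 bases before the start and overlapped an E-box that began 195 bases before it. LRH-1 is the receptor encoded by Nr5a2, which SHP inhibits. In Nr1h4 a half-site on the opposite strand began 214 bases before the start. Of 32851 windows of the same length, 16.3% held the half-site, 6.71% the LRH-1 site and 7.15% the E-box, so such matches are not rare. The Rxra windows held 2 half-sites in all, and the windows of Ppara, Ppard, Nr1h3, Rora and Esrra held none of these letters. No member window held the longer motifs searched, which were DR1 (AGGTCANAGGTCA, 0.0396% of all windows), DR4 (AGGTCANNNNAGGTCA, 0.0152%), IR1 (AGGTCANTGACCT, 0.00913%), the ROR element AANTAGGTCA (0.219%) and the extended half-site TCAAGGTCA (0.423%).

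Rora, a clock-linked receptor, had 9 probe sets, and they did not move as one. Probe set 1455165_at read 9.75, 10.23 and 10.55 in control C57BL6/J mice and 10.56, 11.01 and 11.21 in restricted C57BL6/J mice. All 8 restricted C57BL6/J livers lay above all 8 controls, a separation that 2.12% of all probe sets showed in either direction. It rose by 0.76 ± 0.19 in C57BL6/J (adjusted p = 0.00981; 2.51% of all probe sets called) and by 0.74 ± 0.19 in C3H/HeJ (adjusted p = 0.0252; 1.16% called). In both strains the value barely moved under quantile normalization, 0.74 and 0.75, or with 75th-percentile centring, 0.77 and 0.75, but the calls were lost (adjusted p = 0.127 and 0.195, and 0.0647 and 0.131). In 129S1/SvImJ, Rora 1455165_at read 9.09, 9.38 and 9.96 on the control diet and 9.66, 10.07 and 10.58 on the restricted diet, and the difference of 0.60 ± 0.19 was just outside the threshold (adjusted p = 0.0563). DBA/2J and B6C3F1/J gave 0.26 and 0.49, neither of them called.

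In CBA/J the same Rora probe set went the other way. It read 9.54, 9.93 and 10.50 in control CBA/J mice and 9.07, 9.34 and 9.9995 in restricted CBA/J mice. The groups overlapped, with the restricted one lower, and the probe set fell by 0.58 (SE 0.19, adjusted p = 0.0122; -0.47 and adjusted p = 0.151 after quantile normalization), or by 1.15 against the mean of the other strains (SE 0.21, adjusted p = 8.81e-06). The interaction of Rora 1455165_at was called (adjusted p = 0.000334), and without CBA/J it was not (adjusted p = 0.771). Interaction calls over all probe sets also fell without CBA/J, from 6164 to 319. In the fit that held each array's median the CBA/J difference was -0.07 (adjusted p = 0.844). Within groups this probe set was lower on arrays with a higher median (Pearson's r = -0.52, permutation p = 0.00013, adjusted 0.00143; Spearman's rho = -0.40, permutation p = 0.00023, adjusted 0.00253; r = -0.34 without the 2 farthest arrays).

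The Rora probe sets 1436326_at and 1436325_at fell most in CBA/J. They were designed from 1 sequence record and so are not independent of each other. Rora 1436326_at read 9.96, 10.16 and 10.80 in control CBA/J livers and 8.19, 8.97 and 9.62 in restricted CBA/J livers, and 1436325_at read 9.70, 9.95 and 10.23 against 8.09, 8.92 and 9.67. For both, all 8 restricted CBA/J livers lay below all 8 controls, a separation that 9.99% of all probe sets showed in CBA/J. They fell by 1.28 (SE 0.23, adjusted p = 2.73e-06) and by 1.12 (SE 0.20, adjusted p = 4.12e-06), and after quantile normalization by 1.29 and 1.20. Over 13 alternatives the CBA/J differences ran from -1.42 to -0.85 and from -1.26 to -0.83, and both calls stood in all 13. Within groups 1436326_at was lower on arrays with a higher median (Pearson's r = -0.36, permutation p = 0.00999, adjusted 0.0258; Spearman's rho = -0.29, permutation p = 0.0083, adjusted 0.0457; r = -0.29 without the 2 farthest arrays). In the other strains 1436326_at had differences from -0.49 in B6C3F1/J to -0.02 in 129S1/SvImJ, none called, and without CBA/J the averaged values were -0.21 (adjusted p = 0.195) and -0.07 (adjusted p = 0.700).

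The brightest Rora probe set, 1424034_at, gave an averaged difference of 0.12 ± 0.05 (adjusted p = 0.0990), which was called without the 2 bright arrays at 0.13 (adjusted p = 0.0258) and after quantile normalization at 0.17 (adjusted p = 0.0114). The dim probe sets 1458145_at and 1441085_at reached their array's median in 50 and 42 of 96 arrays and had strain differences from -1.36 to 1.27, none of them called. Probe sets 1420583_a_at, 1458129_at and 1424035_at were not called in the averaged comparison or in any strain.

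**Figure D3:**
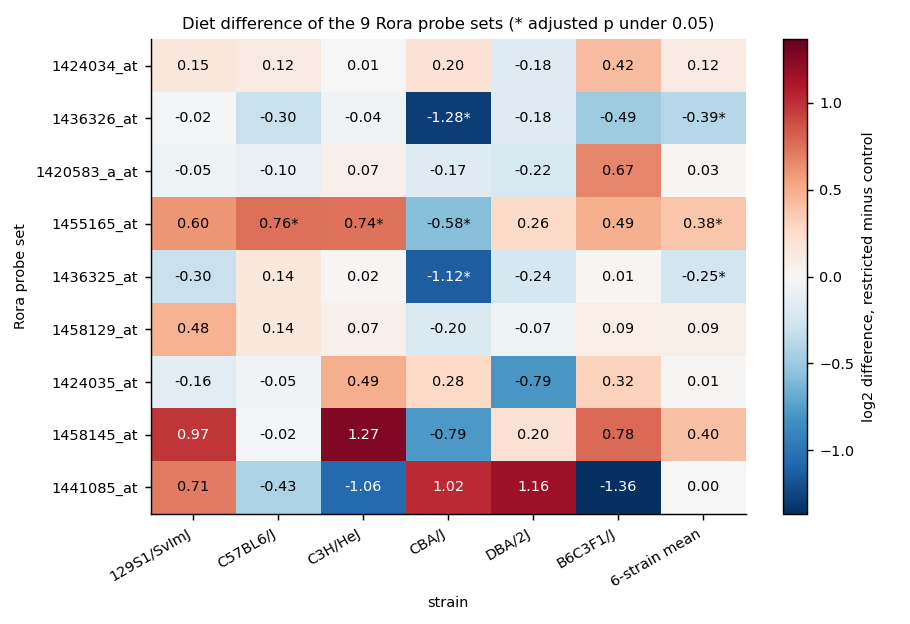
Log2 difference, restricted minus control, of the 9 Rora probe sets (rows) in each strain and averaged over the 6 strains (columns), with the value printed in each cell and an asterisk where the adjusted p is under 0.05. Probe set 1455165_at is positive in 5 strains and -0.58 in CBA/J, while 1436326_at and 1436325_at have their largest falls, -1.28 and -1.12, in CBA/J.

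Esrra, the ERR-alpha gene, rose in 129S1/SvImJ. Probe set 1460652_at read 9.55, 9.73 and 10.11 in control 129S1/SvImJ mice and 9.79, 10.41 and 10.61 in restricted 129S1/SvImJ mice. Apart from 1 low restricted array, the restricted livers lay above all controls, and the difference was 0.54 ± 0.13 (adjusted p = 0.00745; 3.32% of all probe sets called). With arrays centred on their 75th percentile the difference was 0.50 and was not called (adjusted p = 0.0760). Differences in C57BL6/J, C3H/HeJ, DBA/2J and B6C3F1/J were 0.16, 0.24, 0.33 and 0.39, none called, and in CBA/J the Esrra difference was -0.24 ± 0.13 (adjusted p = 0.145). CBA/J was lower than the mean of the other strains by 0.58 in its Esrra response (SE 0.15, adjusted p = 0.00170). The Esrra interaction was called with CBA/J (adjusted p = 0.0186) and not without it (adjusted p = 0.749). Leaving out CBA/J also lowered the interaction calls over all probe sets, from 6164 to 319. The second Esrra probe set, 1442864_at, was dimmer, differed by -0.09 ± 0.13 on average (adjusted p = 0.672), and averaged with the first gave 0.07 (adjusted p = 0.504). The Esrra result therefore rests on 1 of its 2 probe sets.

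Ppargc1b, the coactivator gene, had averaged differences in the same direction as Esrra but with a wide spread. Its probe set 1449945_at read 7.87, 8.77 and 10.11 in control C57BL6/J mice and 6.64, 10.09 and 10.28 in restricted C57BL6/J mice. The restricted median was higher, but 1 restricted array lay below every control. Averaged over strains the Ppargc1b difference was 0.47 ± 0.20 (adjusted p = 0.0897), with a 95% interval of 0.06 to 0.87. It was called with array weights, at 0.45 (adjusted p = 0.0154), and with the array median held, at 0.63 (adjusted p = 0.0110). Over 15 alternatives the averaged Ppargc1b difference ran from 0.36 to 0.63 (adjusted p from 0.0110 to 0.333), and in 13 of them it was not called. Differences were positive in 5 strains and -0.12 in C3H/HeJ, and none was called within a strain by limma. The B6C3F1/J difference of 0.70 includes the bright array, control replicate 2, which read 5.02 while the next control read 9.73. Without that array the B6C3F1/J control mean was 10.002 ± 0.216 (SD, n = 7) in place of 9.379, against 10.078 on the restricted diet. No member was called in B6C3F1/J, where 3.29% of all probe sets were called. There 7 of 21 member probe sets had an unadjusted p under 0.05 in limma. The share of all probe sets at that unadjusted level was not counted, so the 7 cannot be set against a background.

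On the control diet the strains differed in 11 of 21 member probe sets (F test over the 6 strains, 35.8% of all probe sets). Nr0b2 was highest in DBA/2J, where it exceeded the mean of the other 4 inbred strains by 1.13 ± 0.25 (adjusted p = 0.000685; 10.3% of all probe sets). Control means of Nr0b2 ran from 11.89 ± 0.50 (SD, n = 8) in DBA/2J through 11.02 ± 0.45 in 129S1/SvImJ, 10.76 ± 0.48 in C57BL6/J, 10.75 ± 0.71 in C3H/HeJ and 10.51 ± 0.62 in CBA/J to 10.36 ± 1.47 in B6C3F1/J. The last place of B6C3F1/J rests on the bright array, control replicate 2, without which its mean was 10.84 ± 0.63 (SD, n = 7). DBA/2J was called above C57BL6/J, C3H/HeJ, CBA/J and B6C3F1/J, pairs in which 11.2%, 11.1%, 9.39% and 12% of all probe sets were called, while neighbours in that order were not called apart, DBA/2J and 129S1/SvImJ included (adjusted p = 0.0637; 9.25% called). Without replicate 2, DBA/2J exceeded B6C3F1/J by 1.05 ± 0.26 in place of 1.53 (adjusted p = 0.00272). On the restricted diet no pair of strains differed in Nr0b2 by this test (F test adjusted p = 0.290, unadjusted p = 0.243).

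Ppard and Ppargc1b also differed between strains on the control diet. Ppard was lowest in control C57BL6/J, at 2.27, 5.76 and 7.17, and highest in control C3H/HeJ, at 6.07, 7.17 and 7.82. These groups overlapped, the C57BL6/J values spread over more than 4 log2 units, and the difference of C57BL6/J minus C3H/HeJ was -2.03 ± 0.52 (adjusted p = 0.00356; 10.2% of all probe sets). Ppard fell below the average array median in 4 of the 6 control groups, so its low values carry more error. Ppargc1b was lowest in control DBA/2J, at 6.02, 7.86 and 10.87, and highest in control 129S1/SvImJ, at 8.19, 10.44 and 10.76. Ppargc1b was 1.31 lower in DBA/2J than the mean of the other inbred strains (difference -1.31 ± 0.40, adjusted p = 0.0201), a call lost after quantile normalization (-1.29, adjusted p = 0.0615). On the restricted diet DBA/2J was again lowest for Ppargc1b, at -1.87 ± 0.50 relative to 129S1/SvImJ (adjusted p = 0.00536; 14.9% of all probe sets).

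**Figure D4:**
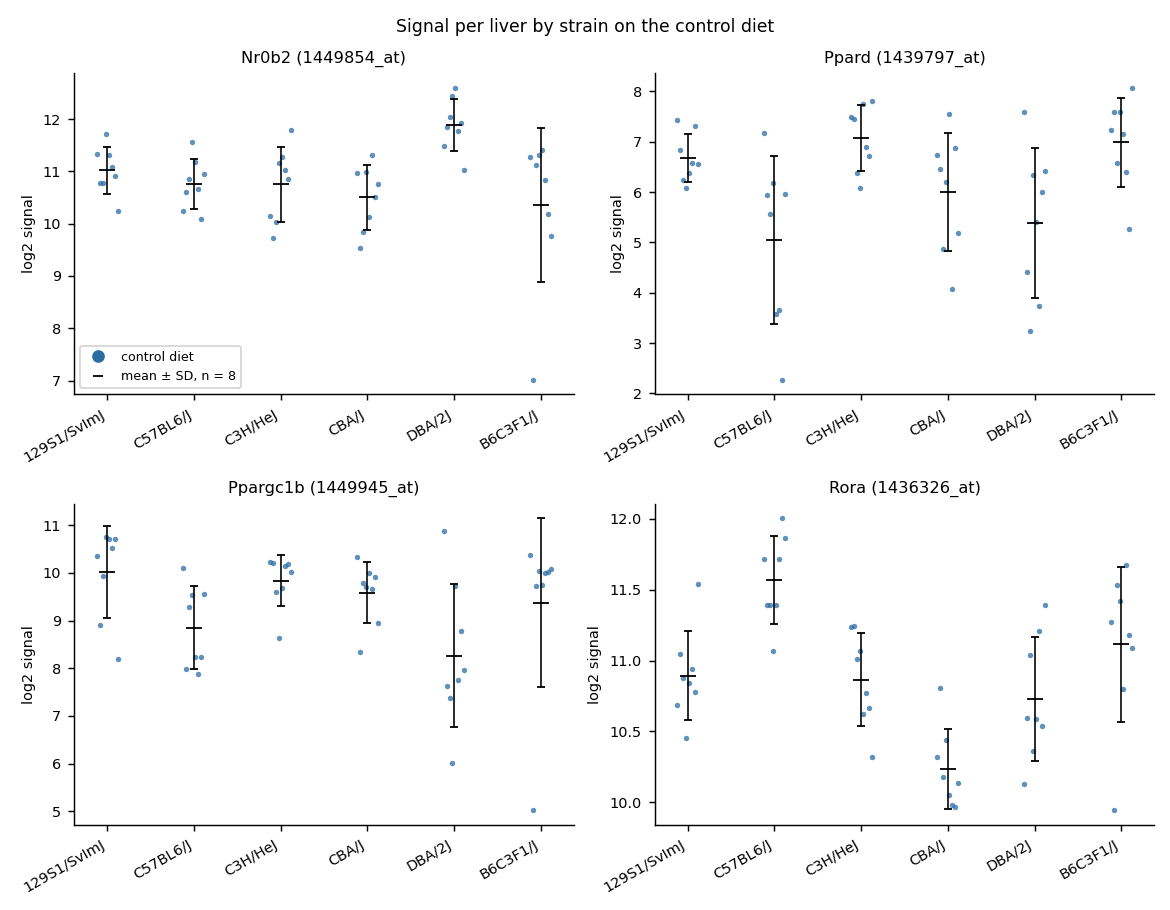
Log2 signal per liver on the control diet by strain for Nr0b2, Ppard, Ppargc1b and the Rora probe set 1436326_at; points are 8 mice per strain and black bars mean ± SD. Nr0b2 is highest in DBA/2J, Ppargc1b lowest in DBA/2J, Ppard widely spread in C57BL6/J and DBA/2J, and Rora 1436326_at runs from C57BL6/J at the top to CBA/J at the bottom.

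Rora 1436326_at separated C57BL6/J from CBA/J. On the control diet it read 11.07, 11.56 and 12.01 in C57BL6/J and 9.96, 10.16 and 10.80 in CBA/J. All 8 C57BL6/J livers lay above all 8 CBA/J livers, a separation that was not counted over all probe sets for this pair. The difference was 1.34 ± 0.23 (adjusted p = 3.17e-06, with 11.0% of all probe sets called between these strains). On the restricted diet the same pair differed by 2.31 ± 0.23 (adjusted p = 3.78e-15; 46.1% of all probe sets). Other Rora probe sets gave other orders: 1424034_at was highest in control DBA/2J, at 11.26 ± 0.21 (SD, n = 8) against 10.81 ± 0.21 in C57BL6/J, the next strain (adjusted p = 0.0171), and 1455165_at was lowest in control 129S1/SvImJ, at 0.58 below the mean of the other inbred strains (difference -0.58 ± 0.15, adjusted p = 0.00441; 10.6% of all probe sets). A probe set can lose signal where a strain's sequence differs from the probe, and that was not tested here.

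Ppara, Nr1h3, Nr1h4 and Esrra showed no strain effect on the control diet for their brightest probe sets, with adjusted F test p-values of 0.259, 0.826, 0.289 and 0.166. Without B6C3F1/J control replicate 2, however, Ppara 1449051_at was called lower in C57BL6/J and in 129S1/SvImJ than in B6C3F1/J, with differences of -0.90 ± 0.25 (adjusted p = 0.00939) and -0.77 ± 0.25 (adjusted p = 0.0359). Ppara 1457721_at was the exception among the Ppara probe sets, with a lower level in control CBA/J than in the other inbred strains (difference -0.67 ± 0.18, adjusted p = 0.00797; 8.55% of all probe sets). Among restricted mice 14 of 21 member probe sets differed between strains (60.4% of all probe sets). Ppara 1449051_at was highest in restricted CBA/J, at 14.69 ± 0.39 (SD, n = 8), and lowest in restricted DBA/2J, at 13.03 ± 1.21, a difference of 1.66 ± 0.28 (adjusted p = 1.74e-06; 25.9% of all probe sets) between groups that each include arrays standing apart. Without DBA/2J restricted replicate 6 the difference was 1.33 ± 0.26 (adjusted p = 2.93e-05). Rxra 1454773_at was likewise lowest in restricted DBA/2J, at 8.81, 10.99 and 11.82, and was called below each of the other 5 strains, comparisons in which 14.9% to 25.9% of all probe sets were called (24.7% against C57BL6/J, 23.6% against C3H/HeJ and 20.0% against B6C3F1/J). Without DBA/2J restricted replicate 6 the call against C57BL6/J was lost (C57BL6/J minus DBA/2J 0.49 ± 0.26 in place of 0.79, adjusted p = 0.169). The other strains were still called above DBA/2J, with adjusted p from 0.00954 against CBA/J to 0.0377 against C3H/HeJ.

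B6C3F1/J lay below the mean of its parent strains on the control diet for 4 of 21 member probe sets, all of them Rora, where 7.29% of all probe sets were called and 5.06% were called lower. Rora 1420583_a_at read 6.81, 10.17 and 10.38 in B6C3F1/J against 10.70, 10.86 and 11.05 in C57BL6/J and 9.86, 10.54 and 10.77 in C3H/HeJ. B6C3F1/J lay below all C57BL6/J livers, a separation that was not counted over all probe sets, and its lowest value came from replicate 2. The difference from the parents was -1.02 ± 0.19 (adjusted p = 0.000175), and for 1436325_at it was -0.70 ± 0.17 (adjusted p = 0.00559). Without replicate 2 both stood at -0.61 (adjusted p = 0.00320 and 0.0315), and with the array median held they stood at -0.46 (adjusted p = 0.0256) and -0.52 (adjusted p = 0.0851). Rora 1424034_at and 1455165_at were also called at -0.38 and -0.52, and without replicate 2 they stood at -0.30 (adjusted p = 0.119) and -0.33 (adjusted p = 0.252).

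Many genes known as PPAR-alpha targets fell. The averaged difference of the brightest Ppara probe set, 1449051_at, was above 0 and was called only with array weights or with the array median held, among the alternatives run. Ppara 1439675_at was called under those settings and also without the bright arrays, as given above. Of 38 target genes measured, each by its brightest probe set, 1 was called higher and 23 lower in the averaged comparison, with a median difference of -0.43 against 0.07 over all 14816 genes, of which 14.2% were called higher and 12% lower. Acot1, an acyl-CoA thioesterase, fell by 1.93, Vnn1, a pantetheinase, fell by 1.89 and Cyp4a14, a fatty acid omega-hydroxylase, fell by 1.52. The hormone gene Fgf21 fell by 0.80, while Pdk4, a brake on pyruvate oxidation, rose by 0.49 ± 0.17 (adjusted p = 0.0313) and Cpt1a, the gate of mitochondrial fatty acid import, stood at 0.07 (adjusted p = 0.673). By strain the targets called lower numbered 23 in 129S1/SvImJ (2.11% of all genes), 13 in C57BL6/J (1.59%), 2 in C3H/HeJ (0.702%), 8 in CBA/J (15.2%), 13 in DBA/2J (4.06%) and 3 in B6C3F1/J (1.04%). CBA/J also had 11 called higher (24.1% of all genes), while the other strains had 0 called higher each. Without CBA/J the averaged counts were 0 higher and 24 lower, and Pdk4 stood at 0.54 (adjusted p = 0.0514). The responses of Acot1, Vnn1, Cyp4a14 and Fgf21 depended on the strain (interaction adjusted p = 0.0138, 0.0275, 0.00616 and 0.00298). The lists of this and the next paragraphs were chosen with earlier results of these data known and are not independent evidence of a direction.

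**Figure D5:**
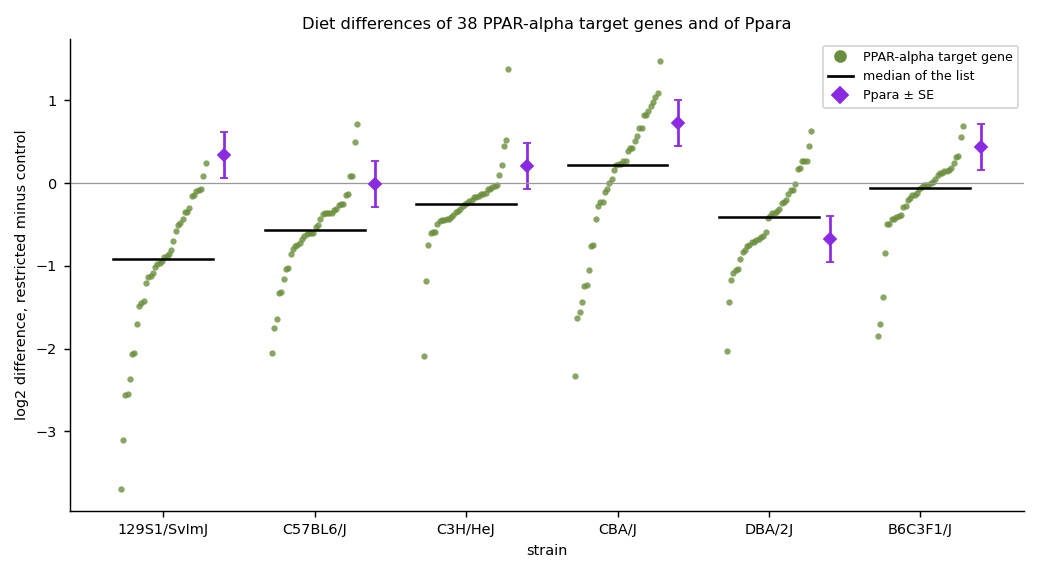
Log2 difference, restricted minus control, of 38 PPAR-alpha target genes (green points, sorted within each strain; black line, their median) beside that of Ppara 1449051_at (purple diamond, ± SE) in each strain. The medians run from -0.92 in 129S1/SvImJ to 0.22 in CBA/J, and Ppara lies above the median of its targets in every strain except DBA/2J.

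Among 17 LXR target genes measured, 7 were called higher and 1 lower, with a median of 0.15, against the 14.2% and 12% of all genes given above. Fasn, fatty acid synthase, rose by 2.06 ± 0.24, and Srebf1, the lipogenic transcription factor gene, rose by 1.02 ± 0.12. The Srebf1 response depended on the strain (interaction adjusted p = 0.00143), with 0.15 in C3H/HeJ and 0.11 in DBA/2J against 1.23 to 1.69 in the other 4 strains. Abcg5 and Abcg8, whose products form the biliary sterol exporter, rose by 0.74 ± 0.09 and 0.83 ± 0.11. Cyp7a1, whose enzyme commits cholesterol to bile acids, fell by 0.88 (SE 0.11) and was lower in all 6 strains, from -1.31 in B6C3F1/J to -0.32 in C57BL6/J. Nr1h3 itself was not called, as given above.

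Bile acid genes downstream of FXR and SHP were mixed. Of 9 genes known to be induced by FXR, 2 were called higher and 3 lower, with 14.2% and 12% of all genes called. Abcb11, the bile salt export pump gene, rose by 0.38 and Slc51b, which encodes a basolateral bile acid transporter subunit, rose by 0.71, while Baat, the amino acid conjugating enzyme gene, fell by 0.62 and Sdc1, which encodes syndecan-1, fell by 0.57. The Sdc1 response depended on the strain (interaction adjusted p = 1.06e-07), from -1.92 in CBA/J to 0.25 in C3H/HeJ, and without CBA/J the averaged value was -0.30 (adjusted p = 0.0187). Slc51b was not called without CBA/J, at 0.72 (adjusted p = 0.0563), and Abcb11 and Baat also depended on the strain (interaction adjusted p = 0.0191 and 0.0315). Of 5 genes repressed by SHP, 2 were called lower, Cyp7a1 and Cyp7b1 (fell by 1.05), and 1 higher, Cyp27a1 by 0.25, a call not made without CBA/J. Cyp8b1, the sterol 12-alpha-hydroxylase gene that sets bile acid composition, stood at -0.21 on average (adjusted p = 0.0819), and its response depended on the strain (interaction adjusted p = 3.07e-09), from -1.38 in C57BL6/J to 1.04 in CBA/J. The averaged Cyp8b1 difference was called without CBA/J, at -0.46 (adjusted p = 0.000672), and without the 2 bright arrays, at -0.22 (adjusted p = 0.0138).

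Genes with ROR response elements gave 1 called higher and 3 lower of 12, with 14.2% and 12% of all genes called. The responses of Cyp7b1, Elovl3 and G6pc depended on the strain (interaction adjusted p = 0.0165, 0.00415 and 0.0264). Cyp7b1 and Elovl3, a fatty acid elongase gene, fell by 1.05 and 0.71, and G6pc, the glucose-6-phosphatase gene, rose by 0.57. Nr1d1, the REV-ERB-alpha gene that competes for the same elements, stood at -0.29 ± 0.27 (adjusted p = 0.473). Without CBA/J 5 of the 12 were called lower.

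Of 24 genes known as ERR and PGC-1 targets, 8 were called higher and 4 lower, with 14.2% and 12% of all genes called. Mdh2 and Ogdh, enzymes of the citric acid cycle, rose by 0.89 and 0.55, while the electron transfer gene Etfdh and the dehydrogenase gene Acadm fell by 0.54 and 0.49. Without CBA/J 4 were called higher and 2 lower, and Ogdh stood at 0.44 (adjusted p = 0.205). Etfdh depended on the strain (interaction adjusted p = 0.00908). Among 21 coregulators, 4 were called higher and 3 lower, shares near the 14.2% and 12% of all genes. Lpin1, a PGC-1-alpha partner, rose by 1.18 ± 0.20 on average, from -0.16 in C3H/HeJ to 2.61 in C57BL6/J (interaction adjusted p = 0.0168), and Ppargc1a, the PGC-1-alpha gene, rose by 0.47 ± 0.09 (adjusted p = 1.16e-05), the same size as the difference for Ppargc1b that was not called. Tbl1xr1, a corepressor subunit, and the methyltransferase gene Prmt1 were the largest of the 3 falls.

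Of 29 other nuclear receptor genes measured, 4 were called higher and 5 lower, with a median of -0.01. These shares were near the 14.2% and 12% of all genes. Nr1i3, the CAR gene, fell by 0.82, and Nr3c2, the mineralocorticoid receptor gene, fell by 0.45. Rara, a retinoic acid receptor gene, rose by 0.85 and Nr4a1 rose by 0.37. Without CBA/J 3 of these were not called: Rara stood at 0.59 (adjusted p = 0.264), Nr4a1 at 0.14 (adjusted p = 0.569) and Nr3c2 at -0.15 (adjusted p = 0.553). CBA/J gave 1.49 for Nr4a1 (interaction adjusted p = 0.0276) and -1.94 for Nr3c2 (interaction adjusted p = 0.000537), and Nr1i3 ranged from -1.32 in DBA/2J to -0.15 in CBA/J (interaction adjusted p = 0.0118). Pparg, Rxrb and Rxrg, close relatives of the members, stood at -0.01, -0.03 and 0.18, and Esrrg at -0.08, none of them called. Among 16 genes for lipid ligand supply and carriers, 8 were called higher and 3 lower, with a median of 0.31, against the 14.2% and 12% of all genes. Without CBA/J 5 were called higher. Fabp5, a fatty acid binding protein gene, rose by 1.45 and Cyp39a1, an oxysterol hydroxylase gene, rose by 1.39, while the other fatty acid binding protein gene named by the rule, Fabp2, fell by 0.73. All 3 depended on the strain (interaction adjusted p = 0.00694, 0.00117 and 0.00854), and Fabp5 stood at -0.12 in CBA/J.

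Over the 12 group means, members paired among themselves with Pearson's r of 0.87 for Ppard and Ppargc1b, 0.85 for Rora and Nr0b2 and 0.72 for Ppard and Ppara, by the brightest probe sets. The group means share arrays and array levels, so these are descriptions without a test. The genes most like Nr0b2 were Vstm4 (r = 0.89) and Abca8b (0.88), those most like Nr1h4 were Mpdz and Resf1 (both 0.93), and those most like Esrra were Rab23 (0.84) and Mrps28 (0.83). Ppard was closest to Mbd6 (0.97) and Atp13a1 (0.96), Ppargc1b to Mast3 and Dnmbp (both 0.96), Ppara to Tnks1bp1 (0.94) and Fam169b (0.93), and Rxra to Arhgap35 (0.95) and Scaf4 (0.92). Rora 1424034_at was closest to Usp3 and Atp6v0b (both 0.93), and Nr1h3 to Stard10 (0.92) and 1700088E04Rik (0.91).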

How the data were processed

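The submitters deposited 1 table of MAS5 intensity values, 1 column per array, for 96 Affymetrix mouse expression arrays; per the submitters' processing notes the tool was MAS5, with its version not given. The deposited intensity of each array had a 2% trimmed mean of 500.001 to 500.005, so arrays were already scaled. Of 45101 probe sets, 64 controls were left out, 34958 had 1 gene symbol, 932 several and 9211 none; 34754 matched RefSeq by gene ID and 0 symbols changed.

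Log2 values of the 32999 probe sets at or above the array median in at least 8 arrays were fitted with limma 3.58.1 in R 4.3.3: 12 group means over 96 arrays, eBayes with trend and robust variances, Benjamini-Hochberg adjustment over all probe sets. The fit was tested on simulated data. The number of arrays limits the precision. Array measures were compared by exact permutation over 12870 splits per strain. Each mouse gave 1 array. The text names every member, for each list the 2 largest called rises and falls, a fixed set of related genes, and for likeness the 2 genes with the highest correlation per member. Members and lists were chosen with earlier results of these data known.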

Additional observations from a re-analysis of the deposited data

Results flagged for a closer look

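Across 12 member probe sets and 144 groups of 8 arrays, 18 groups held a highest or lowest array that lay far from the rest (Dixon's test, 95% level); chance gives about 1 group in 20. B6C3F1/J control replicate 2 was the lowest array of its group in 6 of these: Ppara at 11.36 (next 14.07), Nr1h4 at 10.41 (next 12.07), Nr0b2 at 7.01 (next 9.76), Rxra at 9.99 (next 12.18), Ppargc1b at 5.02 (next 9.73) and Rora 1455165_at at 8.13 (next 9.25). C57BL6/J restricted replicate 2 was lowest for Ppara at 11.98 (next 13.03), Rxra at 10.34 (next 11.52) and Ppargc1b at 6.64 (next 8.67), and highest for Nr1h3 at 11.76 (next 11.13). CBA/J control replicate 2 was highest for Nr1h3 at 11.66 (next 11.12) and Nr1h4 at 13.02 (next 12.65). DBA/2J restricted replicate 6 was lowest for Nr1h3 at 8.55 (next 10.89). Single lowest arrays were 129S1/SvImJ control replicate 8 for Ppara at 12.18 (next 13.19), CBA/J restricted replicate 2 for Ppard at 4.97 (next 7.03), 129S1/SvImJ restricted replicate 5 for Rxra at 11.15 (next 11.97), B6C3F1/J restricted replicate 8 for Rora 1424034_at at 10.45 (next 10.76) and C3H/HeJ control replicate 4 for Ppargc1b at 8.64 (next 9.59).

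The diet difference itself differed between strains for 8 member probe sets (interaction F test in limma). The adjusted p-values were 0.0445 for Ppara 1457721_at, 0.0100 for Nr0b2 and 0.0298 for Rxra 1425762_a_at. For the Rora probe sets they were 0.0117 for 1436326_at, 0.000334 for 1455165_at, 0.00377 for 1436325_at and 0.0261 for 1441085_at, and for Esrra 1460652_at the value was 0.0186.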

How the results depend on the processing

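No called result changed direction under the alternatives run. Among averaged member differences that were not called, the sign turned for Ppara 1457721_at, Nr1h3, Rxra 1454773_at and the Rora probe sets 1420583_a_at, 1424035_at and 1441085_at under at least 1 alternative. The values without a single bright array, and those of the pathway lists and their genes under any alternative, were added after the data were seen. Member probe sets called by strain moved as follows. With quantile normalization C57BL6/J and C3H/HeJ had 0 called and B6C3F1/J 1. Centred on the 75th percentile, 129S1/SvImJ, C57BL6/J, C3H/HeJ and DBA/2J had 0 and CBA/J 5. With array weights 129S1/SvImJ and C57BL6/J had 3, B6C3F1/J 2 and DBA/2J 0. With the stricter filter 129S1/SvImJ had 2 and B6C3F1/J 4. Without the 2 bright arrays 129S1/SvImJ had 2, B6C3F1/J 1 and DBA/2J 0; without DBA/2J restricted replicate 6 alone they had 2, 3 and 0, and without B6C3F1/J control replicate 2 alone 129S1/SvImJ had 2. With the array median as covariate 129S1/SvImJ had 2 and DBA/2J 0. Fitting only the groups compared gave 2 in 129S1/SvImJ, C57BL6/J and C3H/HeJ, 0 in DBA/2J and 2 for B6C3F1/J against its parents. DBA/2J also had 0 with no filter and with eBayes without trend and robust variances. A 1.5-fold minimum left 0 in 129S1/SvImJ and 2 for B6C3F1/J against its parents. The calls over all probe sets within a strain, or for B6C3F1/J against its parents, were not counted under these alternatives. The member counts of this paragraph therefore cannot be set against a background or read as a change particular to the members.

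In the averaged comparison 7 member probe sets were called higher with array weights, 5 without the 2 bright arrays or without DBA/2J restricted replicate 6, 9 with the array median as covariate and 0 with a 1.5-fold minimum. Over all probe sets the calls in either direction also rose, from 7501 to 10045 with array weights and 9280 without the 2 bright arrays. They were 8018 without DBA/2J restricted replicate 6 and 7971 with the covariate. Member probe sets called lower numbered 1 with that covariate and 0 with the 1.5-fold minimum or without CBA/J, and the member interaction calls 0 without CBA/J. By gene, 1 was higher when a gene's probe sets were averaged or without CBA/J, 5 with array weights or the covariate and 0 with the 1.5-fold minimum; 0 were lower centred on the 75th percentile, with the covariate, with the 1.5-fold minimum or without CBA/J.

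In the pathway lists, without CBA/J the genes called higher were 0 for PPAR-alpha targets, 1 for FXR-induced, 0 for SHP-repressed, 4 for ERR and PGC-1, 2 for other nuclear receptors and 5 for ligand supply, and those called lower 5 for ROR elements and 2 for ERR and PGC-1. Without the 2 bright arrays 2 PPAR-alpha targets and 2 SHP-repressed genes were higher, and 3 LXR and 5 ROR element genes lower. SHP-repressed genes called higher were 0 with quantile normalization or 75th percentile centring. With the latter 2 other nuclear receptors were higher and 3 lower. The shares of all genes called were not counted under these alternatives, so the list counts have no background there. Over all probe sets the averaged count went from 7501 to 1992 with the 1.5-fold minimum and 4502 without CBA/J, and the interaction count from 6164 to 319 without CBA/J. The cause was not tested.

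Replicate numbers did not pair the arrays: over 48 pairs the correlation of deviations ran from -0.14 to 0.13, and 17 of 96 arrays were closest to their own number. With the replicate block 1 member probe set was called in B6C3F1/J. In CBA/J the median of all probe sets was 0.295 as deposited and -0.05 after quantile normalization, so the direction of small CBA/J differences depends on scaling. The number of arrays limits what could be called within a strain, and a difference that was not called is not shown to be absent.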
